A study of Arabidopsis thaliana with 6 samples.

Results

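The comparison described here sets root cells sorted from the S gate, with a DNA content between 2n and 4n, against root cells sorted from the G1 gate at 2n, across every nuclear gene. Members were chosen by locus identifier and read count alone: of the 32833 genes in the count table, 32548 were nuclear and 25089 of those passed a filter on low counts and were tested. The cells came from root tips of Arabidopsis thaliana seedlings aged 7 days, of the genotype Col0/H2B-RFP/CDT1a-GFP, whose fluorescent histone and licensing-factor reporters were carried by every gate. Root tips were turned into protoplasts (cells freed of their walls) before sorting, no other treatment was applied, and each gate gave 2 libraries: S, G1, and another gate called G2M, which served here to estimate the spread and for side-by-side values. DNA content stood in for phase, so the S gate holds whatever cells fell between the 2n and 4n peaks.

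In a cycling plant cell, passage through S phase is preceded and accompanied by growth. The nucleolus builds ribosomes, transfer RNAs are charged, proteins are made and turned over, and proteins and RNA cross the nuclear envelope. Chromatin has to be opened, copied and marked again. Cells that leave the root meristem stop dividing and take on vacuoles, thick walls and the functions of a cell type, and a 2n gate can hold such cells beside true G1 cells. Genes of the division machinery itself (cyclins, spindle, replication, histones and their regulators, 581 of the genes tested) were kept in every fit and set aside below, so that the text turns on the other 24508 genes.

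Library totals ran from 13114711 to 208406910 counts in the S gate and from 61572560 to 128604597 in the G1 gate, and S replicate 2 was the shallowest of the 6 libraries. Plastid and mitochondrial genes took 3.48% and 4.27% of counts in S libraries, against 7.05% and 8.74% in G1 libraries. Markers of differentiated root cell types moved between the gates. Of the 4 root cap markers 3 were called lower in S, and their summed level was 358 to 382 CPM (counts scaled to the library total) in S and 494 to 548 in G1. Of the 6 phloem markers 4 were called lower, with sums of 18.1 to 35.7 CPM in S and 77.0 to 81.9 in G1, and SEOR1, a filament protein of sieve elements, was at 0 in S replicate 2. Of the 8 xylem markers 1 was called higher, ACL5, with 137 and 95.9 CPM in S, against 32.9 and 56.6 in G1, and the other 7 summed to 8.54 to 23.0 CPM in S and 14.4 to 19.1 in G1. Of the 4 stem cell niche markers 2 were called higher, PLT2 and BBM, with sums of 125 to 138 CPM in S and 88.6 to 89.5 in G1. Root hair and epidermis markers summed to 91.6 CPM in both S libraries and to 109 to 114 in G1, with 1 called higher and 1 lower, and none of the 5 tested endodermis and cortex markers passed the test. Shoot markers (2.90 to 4.64 CPM in S and 2.02 to 4.13 in G1) and pollen markers (10.14 to 13.2 CPM in S and 8.71 to 10.4 in G1) were low in both gates and none passed. The part of these markers in the results below was not tested.

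The S gate differed from the G1 gate across a large part of the transcriptome. At an adjusted p below 0.05 (edgeR's quasi-likelihood test, Benjamini-Hochberg over all genes tested), 3526 nuclear genes were higher in S (14.1% of those tested) and 1810 were lower (7.21%), so 21.3% were called in either direction. The libraries of the gates did not overlap for 3521 of the genes called higher and for all 1810 called lower, where 55.4% of all nuclear genes tested did not overlap. Most changes were moderate: the median log2 fold change was 0.76 among genes called higher and -0.89 among genes called lower. Those that passed the test and moved over 2-fold numbered 983 higher and 741 lower, and over 4-fold 233 higher and 218 lower. The list of division machinery held 196 of the genes called higher and 71 of those called lower. That left 3330 higher (13.6%) and 1739 lower (7.10%) outside the list, among them 165 that rose over 4-fold. The list missed some genes tied to division, as described below. As bulk samples, these cannot tell fewer cells of a type from less RNA per cell.

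The balance of higher and lower calls depended on the scaling. The median log2 fold change over all nuclear genes was 0.08, and with upper-quartile factors it was -0.10, a shift of -0.18 that turned the calls to 2399 higher and 2978 lower, or 44.6% higher instead of 66.1%. Both counts were smaller with either G1 library left out: without G1 replicate 1 there were 2046 higher and 802 lower calls, and without G1 replicate 2 there were 1803 and 925. The genes called higher made up 33.0% and 33.9% of nuclear counts in the S libraries, against 21.4% and 21.6% in the G1 libraries. The genes called lower made up 13.99% and 12.9% in S, against 23.5% and 23.1% in G1. Both sets were called from these same libraries, so the direction of these shares was fixed by the choice of genes and only their size is described.

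**Figure D1:**
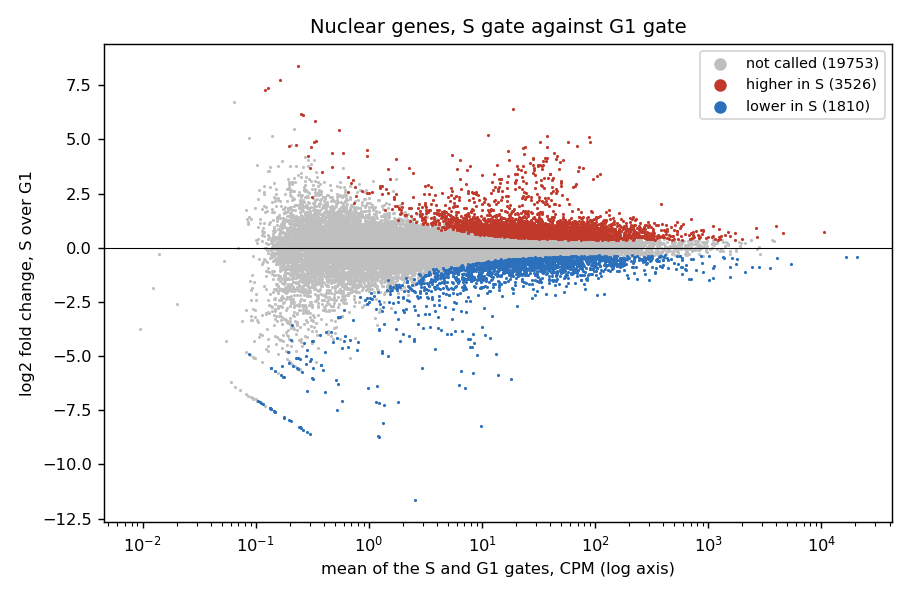
Each point is a nuclear gene, with its mean level over the S and G1 gates in CPM on a log axis and its log2 fold change, S over G1, on the vertical axis. The 3526 genes called higher in S (red) and the 1810 called lower (blue) spread over the whole range of levels above a few CPM.

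Among genes outside the division list, the 10 with the largest rises included cell polarity, cell plate and microtubule proteins. ROPGEF6, at chr3:20648794-20651484 on the minus strand, encodes an exchange factor that switches on ROP GTPases, plant proteins that set up polarity. It had 71.8 and 74.0 CPM in S, against 3.08 and 0.77 CPM in G1 (log2 fold change 5.16 ± 0.41 SE, adjusted p = 3.4e-06). IQD8 (chr1:27356459-27358863, minus strand), of a family of calmodulin-binding proteins that associate with microtubules, had 43.2 and 46.0 CPM in S, against 1.58 and 2.197 CPM in G1, a 23.97-fold difference. TLP8, a tubby-like protein, had 31.3 and 33.6 CPM in S, against 1.65 and 1.24 CPM in G1, or 22.1-fold. Every gene named by rule here and below was required to have S and G1 libraries that do not overlap. None of these 3 genes passed the same test between S and G2M (adjusted p of 0.12 to 0.90).

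CSLD5, a cellulose synthase-like protein that makes wall polymer at the forming cell plate, had 76.9 and 107 CPM in S, against 7.36 and 4.44 CPM in G1 (log2 fold change 3.93 ± 0.27 SE, adjusted p = 9.6e-07). PS1 had 46.5 and 30.0 CPM in S, against 3.39 and 2.197 CPM in G1, and JASON had 35.4 and 41.2 CPM in S, against 3.45 and 2.73 CPM in G1. PS1 and JASON are both known for setting spindle orientation in pollen meiosis (the annotation's product name for JASON is that of an amidotransferase subunit), and here both rose, 13.7-fold and 12.3-fold. EB1C, which binds growing microtubule ends, and ZCF125, which the annotation names only as a nucleoside triphosphatase, also rose, 9.68-fold and 9.15-fold. EB1C belongs by function with the division genes although the list did not catch it. CSLD5, PS1 and JASON, known for roles at the cell plate and the spindle as described above, were not caught either. The largest rises outside the list therefore include genes tied to division. The list rests on gene symbols and product names, so it could not place ZCF125 inside or outside the division machinery by function. SDG35 and IMPA-6 belong to chromatin and nuclear import. SDG35, a SET domain protein, averaged 11.6 ± 2.05 CPM in S and 1.22 ± 0.53 CPM in G1 (SD, n = 2 each). IMPA-6, an importin alpha that carries proteins into the nucleus, averaged 173 ± 7.96 CPM in S and 19.2 ± 1.46 CPM in G1 (SD, n = 2 each).

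Of the 10 genes with the largest falls, all but AGP12 were at or below a few CPM in S, and several belong to the phloem. NAC086 and NAC045 are transcription factors that direct the loss of the nucleus in maturing sieve elements, and they are also among the phloem markers above. NAC086 had 0.85 and 0 CPM in S, against 16.6 and 13.8 CPM in G1 (adjusted p = 0.00020), and NAC045 had 1.17 and 0.63 CPM in S, against 18.4 and 13.1 CPM in G1 (adjusted p = 2.1e-05). SUS5, a sucrose synthase of sieve elements, had 1.03 and 0.078 CPM in S, against 18.6 and 10.2 CPM in G1. For these 3 genes, as for the others named by rule, S and G1 libraries that do not overlap were a condition of naming.

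HVA22F, of a membrane protein family named after an abscisic acid-induced gene of barley, had 0.25 and 0.24 CPM in S, against 14.9 and 10.6 CPM in G1. Its value in S replicate 2 came from 3 counts. APX5, an ascorbate peroxidase, had 0.0045 and 1.098 CPM in S, against 16.8 and 10.4 CPM in G1, and its call was lost with DESeq2. Fitted fold changes of genes this close to 0 depend on the prior count and are not given. CPK29, a calcium-dependent protein kinase, had 1.14 and 0.24 CPM in S, against 15.2 and 10.11 CPM in G1. CEP3, a cysteine protease, averaged 1.61 ± 0.95 CPM in S and 10.3 ± 0.62 CPM in G1 (SD, n = 2 each). CEJ1, an ethylene- and jasmonate-responsive DREB-type factor, and AGP12, an arabinogalactan protein, fell 5.43-fold and 4.92-fold, and AGP12 averaged 8.92 ± 3.74 CPM in S and 46.3 ± 2.81 CPM in G1 (SD, n = 2 each). NS2, an asparaginyl-tRNA synthetase, had 1.56 and 1.25 CPM in S, against 32.4 and 4.96 CPM in G1: its G1 libraries differed from each other far more than its S libraries did.

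**Figure D2:**
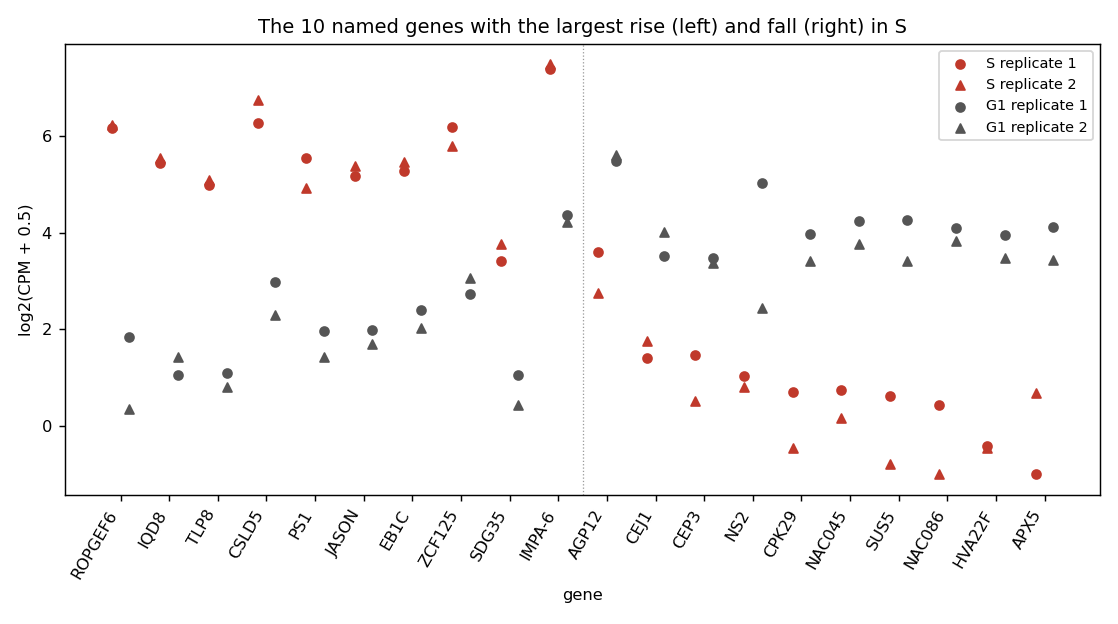
Each gene has its S libraries (red) left of its G1 libraries (grey), as log2(CPM + 0.5), with circles for replicate 1 and triangles for replicate 2. The S and G1 symbols do not overlap for any of the 20 genes, which was a condition for naming them. NS2 shows the widest gap between G1 replicates.

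The 5 largest rises in level, as a difference in CPM, were those of a chaperone, an enzyme of the methyl cycle, an elongation factor, a ribosomal protein and a nucleolin. HSC70-1, the main cytosolic HSP70 chaperone, had 5023 and 5566 CPM in S, against 2730 and 2557 CPM in G1 (log2 fold change 1.00 ± 0.12 SE, adjusted p = 8.7e-05). HOG1, the S-adenosylhomocysteine hydrolase that keeps methyl transfer running, had 5032 and 6233 CPM in S, against 3593 and 3549 CPM in G1. LOS1, the translation elongation factor that moves the ribosome along its message, had 3131 and 3724 CPM in S, against 1881 and 1811 CPM in G1. Of these 3 genes, LOS1 and HOG1 were lower in S than in G2M (adjusted p = 0.0074 and 0.040). P40, a small-subunit ribosomal protein, and the nucleolin NUC-L1, which works in ribosomal RNA processing, completed the 5, with rises of 1.41-fold and 2.03-fold. The call of P40 was lost without the G2M libraries, without either G1 library and without G2M replicate 1.

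The 5 largest falls in level were secreted or defence-related proteins. AGP31, a wall proteoglycan, had 1820 and 2117 CPM in S, against 3990 and 3311 CPM in G1. GLL22, a GDSL-type lipase-like protein, had 560 and 640 CPM in S, against 1751 and 1412 CPM in G1 (log2 fold change -1.40 ± 0.14 SE, adjusted p = 2.4e-05). BGLU35, a beta-glucosidase, had 1754 and 1215 CPM in S, against 2119 and 2101 CPM in G1, and its call was lost without any 1 of S replicate 2, either G1 library or either G2M library. The glutathione S-transferases GSTU25 and GSTF8 fell 1.70-fold and 2.76-fold. For BGLU35, GSTU25, GLL22 and AGP31 the level in S was also above that in G2M (adjusted p of 3.7e-06 to 0.031), so S lay between the other gates.

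Genes that handle RNA, protein and chromatin filled the groups that rose most. Of 57 lists described here, those with the largest shares of members called higher were, in order, RNA helicases, nuclear pore and transport proteins, aminoacyl-tRNA synthetases, chromatin remodellers, translation factors, histone-modifying proteins, RNA polymerase subunits and proteasome subunits. Each list's count stands against the 14.1% of all nuclear genes called higher and the median of 0.08, and no list was tested as a set. That share also climbed with level in CPM, 0.60% in the lowest decile of nuclear genes and 33.96% in the highest. RNA polymerase subunits (33.33%) and proteasome subunits (32.43%) lay below the share of the highest decile. Whether any list exceeded genes of its own level was not tested. Because long genes were called higher more often (below), each count is also given from a fit whose offsets take up trends with GC and length.

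RNA helicases, which unwind RNA in ribosome assembly, splicing and decay, rose in 47 of 69 tested members and fell in 1, with a median log2 fold change of 0.73. With the offsets 40 rose. STRS2, a DEAD-box helicase, had 188 and 223 CPM in S, against 77.0 and 82.6 CPM in G1 (2.57-fold, adjusted p = 1.8e-05). MTR4, the helicase that feeds RNA to the nuclear exosome for ribosomal RNA trimming, had 130 and 133 CPM in S, against 50.6 and 59.7 CPM in G1 (2.39-fold). Both genes had higher levels still in the G2M gate, and the S gate differed from it (adjusted p = 0.049 and 0.022).

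Nuclear pore and nuclear transport proteins rose in 34 of 56 members, with none lower and a median of 0.54 (27 with the offsets). IMPA-6, described above, led the list. MOS6, an importin alpha known from plant immunity, had 58.1 and 53.8 CPM in S, against 12.4 and 12.6 CPM in G1, a 4.48-fold rise with an adjusted p of 3.6e-07. Aminoacyl-tRNA synthetases, which charge transfer RNAs, rose in 29 of 60 members and fell in 1, NS2 (median 0.60, and 23 higher with the offsets). ATKRS-1, the lysyl-tRNA synthetase, had 449 and 464 CPM in S, against 200 and 212 CPM in G1. TWN2, the valyl-tRNA synthetase, had 205 and 229 CPM in S, against 104 and 92.6 CPM in G1. Both synthetases were at just over 2-fold.

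Translation factors rose in 35 of 88 members and fell in 5 (median 0.36), with 31 higher under the offsets, 23 without G1 replicate 1 and 19 when G1 replicate 2 was left out, and 10 lower without S replicate 2. eIFiso4G2, a plant-specific scaffold that joins messenger RNA to the ribosome, averaged 127 ± 7.74 CPM in S and 52.3 ± 4.32 CPM in G1 (SD, n = 2 each). EIF3G2, a subunit of the initiation factor eIF3, averaged 30.9 ± 3.26 CPM in S and 13.3 ± 0.18 CPM in G1 (SD, n = 2 each). Subunits of RNA polymerases I, II and III rose in 16 of 48 members with none lower (median 0.24, and 19 with the offsets), though without either 1 of the G1 libraries 9 rose, and without S replicate 2 5 fell. NRPA2, the second-largest subunit of the polymerase that makes ribosomal RNA, had 125 and 164 CPM in S, against 54.8 and 60.5 CPM in G1 (2.50-fold). NRPC2, its counterpart in the polymerase that makes transfer RNA, had 76.3 and 69.8 CPM in S, against 30.4 and 36.0 CPM in G1 (2.21-fold).

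Chromatin genes moved the same way. Chromatin remodellers and bromodomain proteins rose in 38 of 91 members and fell in 1 (median 0.52, 31 higher with the offsets, 22 without G1 replicate 2). CHR24, a SNF2-type remodeller, had 92.2 and 78.3 CPM in S, against 16.3 and 15.8 CPM in G1, a 5.32-fold rise, and CHR18 rose 2.70-fold. Polycomb, Trithorax and histone-modifying proteins rose in 46 of 120 members and fell in 3 (median 0.42), with 35 higher under the offsets, 30 without G1 replicate 1 and 25 when G1 replicate 2 was left out, and 8 lower without S replicate 1. SDG35, described above, and SDG37, with 45.0 and 50.7 CPM in S against 12.9 and 14.2 CPM in G1, led this list. Proteasome subunits, which break down ubiquitin-tagged proteins, rose in 24 of 74 members with none lower (median 0.30, also 24 with the offsets). Their count was 13 without G1 replicate 1, 10 without G1 replicate 2 and 37 without S replicate 1. RPN1A and RPN5B, both of the regulatory particle, rose 2.08-fold and 1.74-fold.

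Beyond these lists, pentatricopeptide repeat proteins, which bind and edit organelle RNA, rose in 85 of 266 members and fell in 2 (median 0.60). The rises numbered 56 under the offsets, 55 with upper-quartile factors, 46 without G1 replicate 1 and 42 without G1 replicate 2. Small RNA pathway proteins rose in 12 of 49 members with none lower (median 0.36, and 9 with the offsets). The median exon length was 3073 bases in this list and 3055 in the leucine-rich repeat receptor kinases, given next. Of all genes in the longest decile (from 3034 bases) 34.4% were called higher, and 18.5% with the offsets. The shares called higher in these lists, 24.5% and 20.1% without offsets, lay below 34.4%. Leucine-rich repeat receptor kinases rose in 42 of 209 members and fell in 3, and with the offsets the counts were 20 higher and 9 lower and the median was 0.00, against 0.28 without them. Leaving out G1 replicate 1 gave 24 rises, leaving out G1 replicate 2 gave 20, and leaving out S replicate 2 gave 13 falls.

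The lists with the largest shares of members called lower held respiration, stress protection and surface proteins, against 7.21% of all nuclear genes. The share called lower also differed by level, 2.27% in the lowest decile and 14.43% in the highest. These lists were not compared with genes of their own level. Short genes in general were called lower more often. Among all genes of at least 10 CPM, the shortest decile by exon length (102 to 1051 bases) held 34.9% called lower, with a median of -0.28. The median exon length of the respiratory chain list, given next, was 973 bases. Nuclear-encoded subunits of the respiratory chain and ATP synthase, which are mostly short proteins, fell in 30 of 82 members and rose in 5, with a median log2 fold change of -0.40. With the offsets 13 fell and 6 rose (median -0.12), and without G1 replicate 2 18 fell. SDH8, a subunit of succinate dehydrogenase, had 13.5 and 10.98 CPM in S, against 27.6 and 32.0 CPM in G1 (2.41-fold lower, adjusted p = 0.00027). SDH4, its membrane anchor, had 50.6 and 57.2 CPM in S, against 88.2 and 84.5 CPM in G1 (1.61-fold lower). Among them, 6 carry locus numbers from the copy of mitochondrial DNA on chromosome 2, where reads cannot be told from those of the organelle. The other 76 held 29 falls and 5 rises. Mitochondrial genes themselves took a smaller share of counts in S, as given above.

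Late embryogenesis abundant proteins, hydrophilic proteins that protect cells from drying, fell in 18 of 58 members with none higher (median -0.46, and 14 lower with the offsets). ERD14, a dehydrin, had 91.8 and 81.9 CPM in S, against 193 and 177 CPM in G1 (2.13-fold lower, adjusted p = 0.00056). COR413-PM1, a cold-regulated membrane protein, had 9.27 and 11.1 CPM in S, against 22.1 and 20.7 CPM in G1. WRKY factors, regulators of stress and senescence, fell in 11 of 71 members and rose in 2 (median -0.28, also 11 lower with the offsets). Without G1 replicate 1 the falls were 4 and without G1 replicate 2 they were 7, with 0 to 6 rises when 1 library was left out. WRKY14 had 11.6 and 10.2 CPM in S, against 21.1 and 20.8 CPM in G1, and WRKY48 had 8.83 and 9.65 CPM in S, against 21.9 and 15.2 CPM in G1. The call of WRKY48 was lost with the offsets, without G1 replicate 1 and without S replicate 1.

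SAUR proteins, small products of early auxin-response genes, fell in 7 of 46 members with 0 higher (median -0.32, 5 lower with the offsets, 4 without G1 replicate 2). SAUR9 had 5.47 and 3.06 CPM in S, against 13.4 and 13.7 CPM in G1. Fasciclin-like, COBRA and other lipid-anchored wall proteins fell in 6 of 33 members and rose in 3 (median -0.30, and 8 lower with the offsets). FLA7 had 34.5 and 45.6 CPM in S, against 78.7 and 71.1 CPM in G1, and COBL5 had 131 and 133 CPM in S, against 230 and 232 CPM in G1. FLA7 was the only one of the 30 named genes lower in S whose level in S was below that in G2M by the test (adjusted p = 0.017), so its lowest gate was S. Secreted signalling peptides fell in 12 of 82 members and rose in 1. That list's median of -0.29 became 0.01 with the offsets, where 6 fell and 3 rose, and without G1 replicate 1 and G1 replicate 2 the falls were 7 and 6. The medians of SAUR proteins and secreted signalling peptides were -0.70 and -0.69 without S replicate 1.

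Proton pumps, RAB and ROP genes and autophagy proteins moved in both directions. Of the 38 proton pumps 7 rose and 8 fell. Among their 23 vacuolar pump genes 3 rose and 8 fell, and among the 15 plasma membrane and other pumps 4 rose and 0 fell. VAG2, a subunit of the vacuolar pump's stalk, had 20.3 and 20.2 CPM in S, against 32.7 and 32.3 CPM in G1, and VHA-E3 fell 1.48-fold. Neither call was kept with the offsets or without G1 replicate 1, nor that of VHA-E3 without G1 replicate 2. With the offsets the list held 2 rises and 3 falls, without G1 replicate 1 it held 3 and 0, without G1 replicate 2 2 and 4, and without either 1 of the G2M libraries 4 and 4. Of the vacuolar pumps 0 to 5 rose and 0 to 9 fell in the fits without 1 library, and of the others 2 to 4 rose and 0 to 1 fell. Of 79 RAB and ROP genes 11 rose and 13 fell. Their 14 ROP exchange factors held 3 rises and 0 falls, and the other 65 held 8 and 13. RABB1C, a GTPase of vesicle traffic, had 32.5 and 38.3 CPM in S, against 62.6 and 68.9 CPM in G1, and RABH1e fell 1.95-fold, a call lost with the offsets and without G1 replicate 1. The balance within this list turned with the setting: 16 rose and 4 fell with the offsets, and 7 rose and 18 fell with upper-quartile factors. Leaving out G1 replicate 1 gave 6 rises and 1 fall, leaving out G1 replicate 2 gave 6 and 5, and leaving out G2M replicate 1 or G2M replicate 2 gave 7 rises each and 7 or 8 falls. Autophagy proteins rose in 5 of 38 members and fell in 6, among them the ubiquitin-like APG8A (1.87-fold lower) and ATG8F (1.95-fold lower), which mark autophagosome membranes. The call of APG8A was lost with the offsets, where 1 of the list fell, and that of ATG8F without either G1 library. Without G1 replicate 2 the list held 2 rises and 2 falls, and 3 rose with the offsets, without G1 replicate 1, without G2M replicate 1 or without S replicate 2.

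The remaining 37 lists are given with the range over the 6 fits that each left out 1 library. In all 57 lists a fit without one of the G1 libraries gave the fewest rises, in some lists tied with other fits. The count of higher calls over all nuclear genes was also smallest in those fits. Many list counts moved more than 1.5 times. Pre-mRNA splicing proteins rose in 25 of 115 (9 to 30) and fell in 7 (0 to 13), with a median of 0.11 (0.03 to 0.18). DNAJ, HSP70 and HSP90 chaperones rose in 31 of 150 (12 to 38) and fell in 12 (4 to 21), with a median of 0.14 (-0.01 to 0.25). Tricarboxylic acid cycle enzymes rose in 8 of 31 (3 to 11) and fell in 2 (0 to 3), with a median of 0.15 (0.05 to 0.27). Glycolysis enzymes rose in 17 of 88 (8 to 21) and fell in 6 (3 to 13), with a median of 0.10 (0.03 to 0.15). Mitochondrial carriers and protein import rose in 10 of 72 (3 to 16) and fell in 2 (0 to 2), with a median of 0.21 (0.12 to 0.28). Photosynthesis and light harvesting proteins rose in 3 of 66 (1 to 4) and fell in 1 (0 to 4), with a median of 0.13 (-0.12 to 0.25). SNAREs, coats and exocyst rose in 28 of 166 (15 to 33) and fell in 13 (6 to 24), with a median of 0.06 (-0.10 to 0.09). F-box proteins rose in 32 of 472 (10 to 33) and fell in 21 (4 to 30), with a median of 0.05 (-0.36 to 0.11).

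Most transcription factor families held a smaller share of genes called higher than the 14.1% of all nuclear genes, while GRAS factors and Aux/IAA and ARF factors held a larger one. The shares called higher and lower both differed with level, as given above. No family was compared with genes of its own level. Some families held a larger share of genes called lower than the 7.21% of all. These were Aux/IAA and ARF factors (12.5%), NAC factors (12.3%), AP2/ERF factors (10.2%) and bHLH factors (9.45%). With the offsets 4, 10, 10 and 8 of their genes fell, in that order. The bZIP factors (7.59%, and 5 falls with the offsets) lay near the share of all. WRKY factors, described above, stood at 15.5%. GRAS factors rose in 7 of 34 (3 to 8) and fell in 1 (0 to 3), with a median of 0.28 (0.04 to 0.37). Aux/IAA and ARF factors rose in 11 of 56 (3 to 13) and fell in 7 (2 to 9), with a median of 0.11 (0.02 to 0.17). The bZIP factors rose in 8 of 79 (1 to 7) and fell in 6 (3 to 10), with a median of 0.02 (-0.08 to 0.06). AP2/ERF factors rose in 11 of 128 (6 to 15) and fell in 13 (4 to 19), with a median of -0.07 (-0.15 to 0.02). The bHLH factors rose in 10 of 127 (7 to 13) and fell in 12 (2 to 16), with a median of 0.11 (-0.26 to 0.17). MYB factors rose in 7 of 139 (4 to 12) and fell in 4 (1 to 8), with a median of 0.03 (-0.26 to 0.06). Homeodomain factors rose in 7 of 99 (5 to 7) and fell in 3 (2 to 10), with a median of 0.12 (-0.14 to 0.12). NAC factors rose in 4 of 106 (1 to 7) and fell in 13 (6 to 18), with a median of -0.01 (-0.48 to 0.07). C2H2 and DOF zinc finger factors rose in 5 of 114 (2 to 7) and fell in 6 (2 to 13), with a median of -0.05 (-0.36 to 0.05). Growth-regulating factors and TCP factors rose in 2 of 31 (0 to 2) and fell in 1 (0 to 2), with a median of 0.04 (0.02 to 0.18). Circadian clock genes rose in 1 of 27 (1 to 4) and fell in 1 (1 to 3), with a median of 0.04 (-0.01 to 0.10).

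Transport, wall, hormone and defence lists followed. ABC transporters rose in 26 of 133 (11 to 25) and fell in 6 (1 to 8), with a median of 0.19 (0.00 to 0.23). Nitrate, peptide and ammonium transporters rose in 6 of 56 (4 to 7) and fell in 5 (2 to 7), with a median of -0.07 (-0.26 to 0.02). Metal transporters and iron deficiency genes rose in 5 of 68 (1 to 6) and fell in 6 (1 to 6), with a median of 0.03 (-0.07 to 0.09). Sulfate uptake and assimilation rose in 5 of 38 (2 to 8) and fell in 2 (1 to 4), with a median of 0.12 (-0.02 to 0.17). Cellulose synthase superfamily rose in 6 of 43 (4 to 7) and fell in 3 (0 to 3), with a median of 0.26 (-0.10 to 0.27). Pectin methylesterases, lyases and polygalacturonases rose in 14 of 216 (4 to 15) and fell in 18 (8 to 22), with a median of 0.01 (-0.51 to 0.10). Extensins and proline-rich proteins rose in 3 of 47 (1 to 5) and fell in 6 (3 to 4), with a median of -0.24 (-0.70 to -0.08). Class III peroxidases rose in 2 of 69 (1 to 9) and fell in 6 (4 to 9), with a median of 0.01 (-0.76 to 0.40). Very long chain fatty acid and suberin synthesis rose in 5 of 61 (1 to 6) and fell in 4 (1 to 5), with a median of 0.09 (-0.28 to 0.19). Sterol and brassinosteroid synthesis rose in 2 of 36 (0 to 9) and fell in 0 (0 to 3), with a median of 0.12 (-0.01 to 0.20). Abscisic acid receptors and PP2C phosphatases rose in 13 of 100 (5 to 15) and fell in 6 (1 to 11), with a median of -0.02 (-0.09 to 0.01). Ethylene synthesis and response rose in 3 of 30 (1 to 4) and fell in 2 (1 to 4), with a median of 0.04 (-0.00 to 0.12). Calcium-binding and calcium-dependent kinases rose in 10 of 144 (2 to 14) and fell in 21 (8 to 33), with a median of -0.09 (-0.15 to -0.03). Plant defensins and pathogenesis-related proteins rose in 3 of 139 (1 to 4) and fell in 15 (8 to 15), with a median of -0.15 (-0.68 to -0.03). NLR immune receptors rose in 9 of 148 (1 to 12) and fell in 2 (0 to 10), with a median of 0.12 (-0.20 to 0.21). Glucosinolate synthesis and breakdown rose in 2 of 55 (1 to 5) and fell in 6 (4 to 11), with a median of -0.04 (-0.42 to 0.01). Cytochrome P450 enzymes rose in 10 of 225 (4 to 14) and fell in 11 (1 to 20), with a median of 0.01 (-0.22 to 0.09). UDP-glycosyltransferases rose in 6 of 116 (3 to 10) and fell in 4 (2 to 13), with a median of -0.05 (-0.13 to -0.03). The median of class III peroxidases was -0.76 without S replicate 1 and 0.40 without S replicate 2. With upper-quartile factors, which move all genes about alike, the medians of 25 of the 57 lists changed sign, as did that of all nuclear genes, so each median is read beside the one of all genes under the same scaling.

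**Figure D3:**
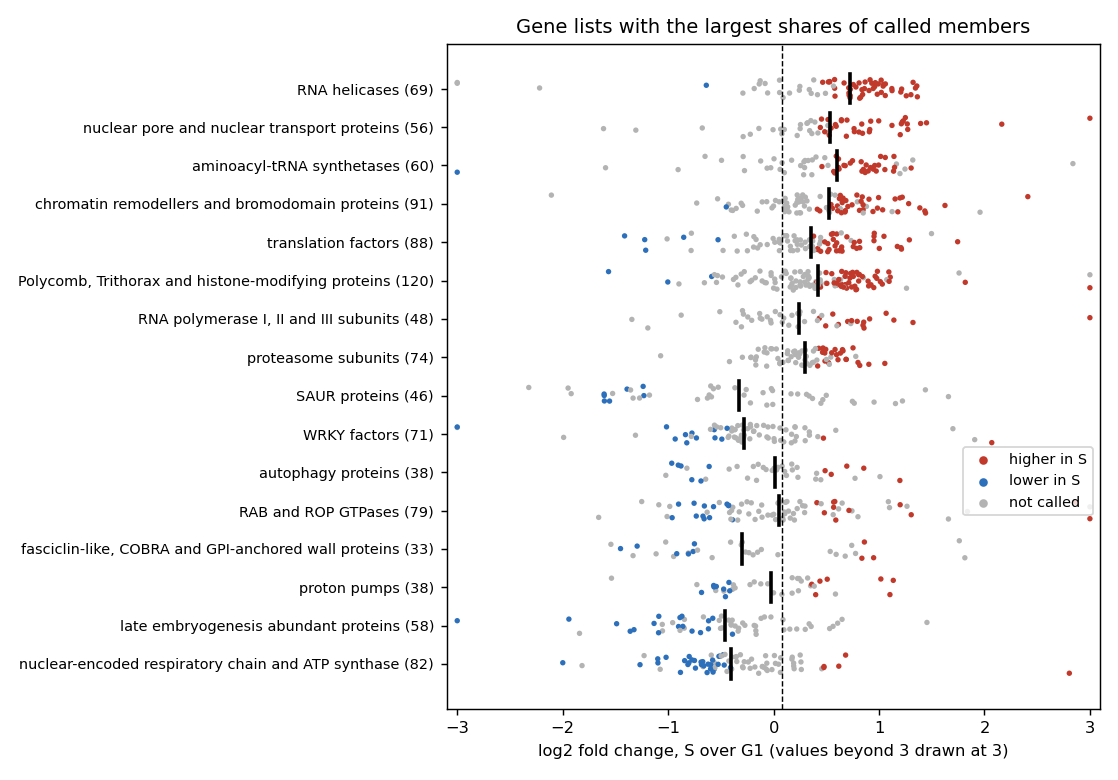
Each row is a gene list with the number of members tested, each point a member's log2 fold change, S over G1, and each black bar the list's median. The dashed line is the median of all nuclear genes (0.08), and the first 8 rows lie to its right while the respiratory chain and late embryogenesis rows lie to its left.

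The G2M gate gave side-by-side values for the named genes. Of the 29 named genes higher in S, 12 differed between S and G2M (19.7% of all nuclear genes did), and all 12 were lower in S than in G2M. Of the 30 named genes lower in S, 11 differed, 10 of them higher in S than in G2M. The S and G1 comparison and the S and G2M comparison share the S libraries.

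Gene structure tracked the difference between gates. Genes called higher had a median exon length of 2280 bases and 8 exons, genes called lower 1304 bases and 3 exons, and all nuclear genes tested 1626 bases and 4 exons. By deciles of exon length, the share called higher climbed with length, 0.44% in the shortest decile and 34.4% in the longest, while the share called lower was 14.1% in the second decile and 2.99% in the longest. The median log2 fold change was -0.14 in the shortest decile, -0.24 in the second and 0.37 in the longest. Among genes with a mean of at least 10 CPM the shortest decile was at -0.28 and the longest at 0.47. Over all 25089 genes the Spearman correlation between exon length and log2 fold change was 0.26, a description across genes of libraries that share their preparation.

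Replicates of 1 gate also differed by length. The median difference between S replicate 1 and S replicate 2 was 0.34 in the shortest decile and -0.02 in the longest, on the log2(CPM + 0.5) scale. Among genes with a mean of at least 10 CPM it was -0.05 in both, and -0.19 to -0.11 in the deciles between. By decile of level the same difference ran from 0.30 to 0.46 in the 4 lowest deciles and was -0.17 in the highest. Between the G1 replicates the difference was -0.06 in the shortest decile of length and 0.09 in the longest. In the longest decile both S libraries and both G2M libraries lay above both G1 libraries, with and without the genes of low level. In the shortest decile over all genes S replicate 1 lay with the G1 libraries and S replicate 2 with the G2M libraries, whereas among genes of at least 10 CPM both S libraries lay below all 4 of the others. GC content tracked the difference too: the median log2 fold change was -0.19 in the decile of lowest GC and 0.18 in the seventh decile. With GC and length offsets the median was 0.00 in the shortest decile and 0.10 in the longest, the share called higher in the longest decile was 18.5%, and 3019 higher and 1603 lower calls were made, 2513 and 1216 of them shared with the fit without offsets. RNA quality values were not analysed here, and the part of RNA integrity or library preparation in this trend was not tested.

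**Figure D4:**
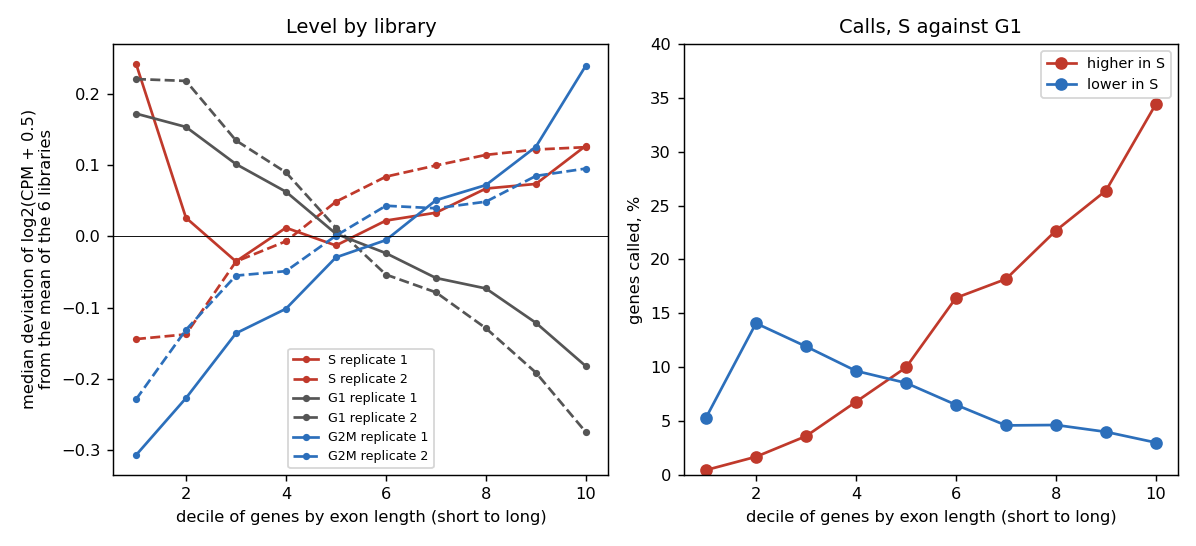
Left, the median deviation of log2(CPM + 0.5) from the mean of the 6 libraries by decile of exon length, a line per library; right, the percentage of genes called in each decile. Both G1 lines slope down with length while the lines of the other gates end above 0, and calls of higher genes reach 34.4% in the longest decile.

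Medians were alike on the 5 nuclear chromosomes. The median log2 fold change ran from 0.07 on chromosome 4 to 0.09 on chromosome 5, and the share called higher from 13.1% on chromosome 2 to 14.7% on chromosome 3. Almost all calls fell on protein-coding genes, 3522 higher and 1788 lower of 23833. Of 890 long noncoding RNAs 1 rose and 9 fell, and of 70 small nucleolar RNAs, none of which passed, the median was -0.33.

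Promoters of genes called higher held some motifs more often than promoters of all genes tested. A window of 250 bases before to 50 bases after the annotated start was read from the RefSeq genome TAIR10.1 for 25088 genes, and 11 motifs were searched on both strands. The telo-box (AAACCCTA), known from ribosomal protein and other growth genes, was in 9.43% of promoters of genes higher in S outside the division list, in 3.28% of those lower, and in 6.11% of all. Site II (TGGGCC or TGGGCT), bound by TCP factors, was in 32.9% of promoters of genes higher, in 21.0% of those lower and in 22.6% of all. The core of the mitosis-specific activator element, MSA (AACGG), bound by MYB3R factors, was in 30.8% of promoters of genes higher, in 23.5% of those lower and in 24.9% of all. A match is a run of letters and not evidence of binding.

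Of the other motifs, the W-box, E2F site and TGA site were more frequent among genes called lower than among all. The G-box, heat shock element and GCC-box lay near the share of all. The W-box (TTGACC or TTGACT), bound by WRKY factors, was in 30.3% of promoters of genes higher, in 37.6% of those lower and in 32.6% of all, and the E2F site (TTTCCCGC, TTTCGCGC, TTTGCCGC or TTTGGCGC) was in 1.74%, 2.93% and 1.58% in the same order. The G-box (CACGTG) stood at 8.17%, 8.40% and 7.998% in that order, the TATA box (TATAAA) at 49.5%, 54.4% and 52.0%, and the auxin element (TGTCTC) at 13.4%, 12.2% and 13.95%. The heat shock element (GAANNTTC) stood at 10.8%, 11.6% and 11.4%, the GCC-box (GCCGCC) at 2.88%, 2.30% and 2.57%, and the TGA site (TGACGTCA or TGACGTAA) at 1.17%, 2.19% and 1.39%. In the 250 bases before the start alone, the telo-box was in 5.62% of promoters of genes higher, 1.90% of those lower and 4.32% of all. Among lists, site II was in 52.3% of promoters of translation factors and 43.5% of those of RNA helicases, but also in 45.1% of those of the respiratory chain list, where 30 of 82 fell. The telo-box was in 18.8% of promoters of RNA helicases and in 0 of the 82 of the respiratory chain list. Within the longest decile of genes, site II was in 29.3% of promoters of genes higher in S and in 20.2% of the others, and the telo-box in 6.94% and 3.65%.

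**Figure D5:**
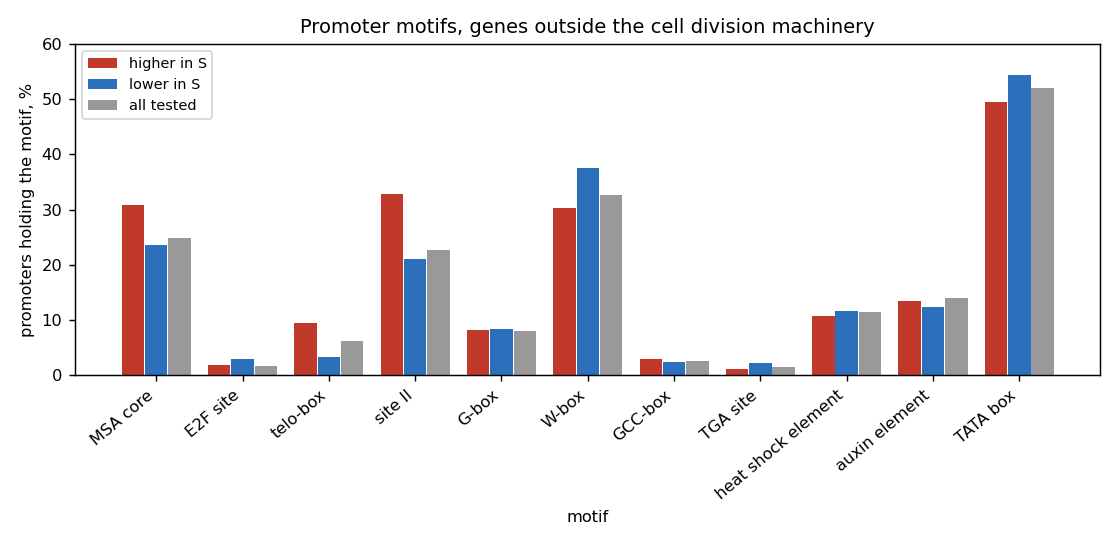
Bars give the percentage of promoters that hold each of 11 motifs, for genes higher in S (red), lower in S (blue) and all tested (grey), outside the cell division list. Site II, the telo-box and the MSA core are most frequent among genes higher in S, and the W-box among genes lower.

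The promoters of 5 named genes that rose are printed here to show how these letters lie, each as the 250 bases before the annotated start, 5′ to 3′ on the gene's strand, from RefSeq TAIR10.1. Of the 29 named genes that rose, the wider window held a telo-box in 6, site II letters in 13 and an MSA core in 16, and the 5 printed were picked for holding them. EIF3G2, ATKRS-1 and LOS1, genes of translation, hold telo-boxes and site II letters, and EIF3G2 also an MSA core. Other named translation genes differ: TWN2 has site II letters alone, P40 a telo-box and an MSA core without site II, and eIFiso4G2 none of the 3. IMPA-6 holds site II letters and an MSA core, and CSLD5, the cell plate gene, holds 5 MSA cores. Capitals mark the telo-box, site II and MSA core letters on either strand.
EIF3G2 promoter, chr5:1807861-1808110, plus strand: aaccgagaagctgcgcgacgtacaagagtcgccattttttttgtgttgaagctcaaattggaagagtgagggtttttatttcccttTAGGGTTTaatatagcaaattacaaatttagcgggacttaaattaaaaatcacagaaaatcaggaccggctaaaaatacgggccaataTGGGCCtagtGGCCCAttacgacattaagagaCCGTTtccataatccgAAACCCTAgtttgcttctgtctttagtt
ATKRS-1 promoter, chr3:3705717-3705966, minus strand: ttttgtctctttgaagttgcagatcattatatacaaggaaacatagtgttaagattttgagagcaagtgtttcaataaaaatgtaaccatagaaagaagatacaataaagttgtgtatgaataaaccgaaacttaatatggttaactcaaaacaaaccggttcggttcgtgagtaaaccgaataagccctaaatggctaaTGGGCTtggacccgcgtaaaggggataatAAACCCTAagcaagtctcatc
LOS1 promoter, chr1:20971743-20971992, minus strand: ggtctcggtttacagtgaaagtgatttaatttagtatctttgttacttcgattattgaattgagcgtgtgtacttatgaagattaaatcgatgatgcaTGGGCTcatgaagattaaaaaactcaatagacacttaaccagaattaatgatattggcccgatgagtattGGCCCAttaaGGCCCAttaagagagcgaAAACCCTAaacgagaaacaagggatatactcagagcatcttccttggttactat
IMPA-6 promoter, chr1:583884-584133, plus strand: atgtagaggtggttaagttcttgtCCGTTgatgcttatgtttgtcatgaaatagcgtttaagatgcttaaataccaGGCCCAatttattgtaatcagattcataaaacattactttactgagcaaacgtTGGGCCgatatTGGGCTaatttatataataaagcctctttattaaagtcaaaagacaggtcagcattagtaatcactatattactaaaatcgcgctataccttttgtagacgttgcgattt
CSLD5 promoter, chr1:598658-598907, minus strand: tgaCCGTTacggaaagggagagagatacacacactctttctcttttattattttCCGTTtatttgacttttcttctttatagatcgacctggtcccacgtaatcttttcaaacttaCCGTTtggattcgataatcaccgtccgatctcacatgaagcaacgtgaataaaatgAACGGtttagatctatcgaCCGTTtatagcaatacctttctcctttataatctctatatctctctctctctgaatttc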

How the data were processed

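Libraries were made from sorted protoplasts with a full-length cDNA kit, per the labels' protocols. Reads were trimmed with Trimmomatic 0.39, aligned with HISAT2 2.2.1 to TAIR10 and counted with featureCounts, per the submitters' processing notes, whose strand setting is not given in the sources used here. The authors' deposited table holds whole-number counts per gene, not normalized. A second deposited table was not used, since its columns do not sum as TPM would.

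The counts of all 6 libraries were fitted together with edgeR 4.0.16 in R 4.3.3 (default low-count filter, TMM factors, quasi-likelihood test of S minus G1, Benjamini-Hochberg over 25364 genes, 275 of them from plastids and mitochondria). CPM are scaled by TMM factors, except for the marker sums, which are scaled to total counts. Since nothing says that the replicates came from separate cultures, p-values measure the spread between these libraries, which may be technical. Tested on simulated counts over 24578 genes, the fit recovered 54.2% of 2-fold and 88.0% of 4-fold rises, and 38.3% of 2-fold and 66.7% of 4-fold falls, with 12 false calls of 24388. The simulation changed few genes, set as many to rise as to fall, and held no trend with length or GC between gates. Its rate of false calls therefore need not hold for these data. At this depth 3 counts came to 0.014 to 0.24 CPM.

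Gene names, exon lengths, GC content and promoters came from RefSeq TAIR10.1. Lists were built from gene symbols and product names, and a gene can be in several. Named genes lie outside the division list, have a symbol, pass the test with gates that do not overlap and reach 10 CPM in the higher gate: the 10 largest log2 fold changes and 5 largest CPM differences each way, and 2 genes for each of the 8 lists with the largest share called higher or lower. Members and lists were chosen with earlier results of these data known. After fold changes were seen, vacuolar pump subunits were taken out of the respiratory chain list. Genes named beyond the rule (SEOR1, ACL5, PLT2 and BBM) are cell type markers. Alternatives included DESeq2 1.42.0, limma-voom 3.58.1, other factors and filters, thinned libraries, GC and length offsets, a replicate block and leaving out each library.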

Additional observations from a re-analysis of the deposited data

How the results depend on the processing

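Counts of calls were recomputed under 17 alternatives. The count of higher genes was 5552 with limma-voom and 1999 with only the S and G1 libraries, and the count of lower genes was 4124 with limma-voom and 2978 with upper-quartile factors. Leaving out each library gave 1803 to 4205 higher and 802 to 2675 lower genes, where a gate left with a lone library was assumed to vary like the others. DESeq2 (3602 higher, 2279 lower), the other filters, thinned libraries and GC and length offsets stayed within 1.5 times of 3526 and 1810. No gene called one way was called the other way under any of the 17. With the replicate number as a block 3336 were higher and 1642 lower, and with block and offsets 2773 and 1461. The block rests on a shared number alone: the replicate differences of S and G1 correlated at -0.05, of S and G2M at -0.06 and of G1 and G2M at 0.03 across genes. All 59 named genes kept their direction under each alternative. Besides the calls named as lost in the report, the block with offsets ended that of SDH4 and those of the genes whose calls the offsets alone ended. The causes were not tested. The depth of S replicate 2, 13114711 counts, limits what can be seen of genes below a few CPM.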
